A study of Mus musculus with 18 samples.

Results

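The mRNA of 10 genes that mark hepatic stellate cells and the myofibroblasts they can turn into was followed in mouse liver. The genes, Acta2, Tagln, Des, Pdgfra, Pdgfrb, Lrat, Reln, Thy1, Tgfb1 and Lox, were picked by symbol from a table of 35441 genes. All 10 were among the 14533 genes tested, which needed a total above 100 reads across the 18 mice. The study asked whether a liver-directed vector corrects lysosomal acid lipase deficiency, and it sequenced polyA RNA from whole frozen liver of male mice. WT mice, untreated Lipa-/- mice and rAAV8-treated Lipa-/- mice were compared at 2 times, with 3 mice in each of the 6 groups. WT and untreated mice had no treatment in the labels. Lipa-/- mice lack exon 4 of Lipa throughout the body, deleted by Cre under a CMV promoter, on a C57BL/6N background, and WT mice were littermates matched for age. Treated Lipa-/- mice received rAAV8.hAAT.LIPA, which carries the human LIPA cDNA under the hepatocyte-specific hAAT promoter, by tail vein at an age of 10 to 12 weeks. The study tested several doses and chose its middle dose for the longer follow-up. Livers were collected 12 weeks (3 months in the labels) or 34 weeks (8 months) after injection of the treated mice. Most untreated Lipa-/- mice of the study were killed at humane endpoints before the later time, so for untreated mice labelled 8 months a lower age at death cannot be told apart from genotype.

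Hepatic stellate cells lie between hepatocytes and the sinusoidal endothelium and store retinyl esters, the body's reserve of vitamin A. When the liver is injured they lose these stores, divide in response to platelet-derived growth factor, respond to transforming growth factor beta (TGF-beta) and become contractile myofibroblasts that lay down collagen. Portal fibroblasts around the bile ducts are another source of myofibroblasts. Lrat and Reln mark the resting stellate cell, Des and the PDGF receptors the stellate and mesenchymal lineage, Acta2, Tagln and Lox the activated myofibroblast and Thy1 the portal fibroblast. None of these genes is confined to that lineage: smooth muscle also makes Acta2, Tagln and Des, T cells make Thy1, and macrophages, platelets and endothelium make Tgfb1.

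The upstream sequences of 3 genes are shown, picked by how they were called between untreated and WT mice. Acta2, a smooth muscle gene, passed at 34 weeks and not at 12 weeks, but its difference was not shown to change between the times. Des, a muscle filament gene, passed at both times, and Lrat, the retinoid storage gene, was lower. Whether the motifs below bear on these calls was not tested. Each line holds the 250 bases before the start of the gene, 5′ to 3′ on the gene's own strand, from RefSeq on GRCm38.p6, whose table matched 6 of the 10 genes (Acta2, Des, Lrat, Pdgfra, Reln, Tgfb1). The windows are chr19:34255374-34255623 on the minus strand for Acta2, chr1:75360042-75360291 on the plus strand for Des and chr3:82903975-82904224 on the minus strand for Lrat. Capitals mark CArG boxes, the motif read by serum response factor, searched as CC, then 6 bases of which at least 5 were A or T, then GG.
Acta2: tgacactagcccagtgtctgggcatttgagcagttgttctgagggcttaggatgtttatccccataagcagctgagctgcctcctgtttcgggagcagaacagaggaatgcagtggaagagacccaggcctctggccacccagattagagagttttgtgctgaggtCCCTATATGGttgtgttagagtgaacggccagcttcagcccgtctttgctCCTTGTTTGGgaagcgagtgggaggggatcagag
Des: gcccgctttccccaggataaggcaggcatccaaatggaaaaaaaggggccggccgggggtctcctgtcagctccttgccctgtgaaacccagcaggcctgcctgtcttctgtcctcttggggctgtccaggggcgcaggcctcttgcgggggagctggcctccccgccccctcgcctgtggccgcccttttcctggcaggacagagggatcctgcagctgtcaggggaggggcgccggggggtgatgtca
Lrat: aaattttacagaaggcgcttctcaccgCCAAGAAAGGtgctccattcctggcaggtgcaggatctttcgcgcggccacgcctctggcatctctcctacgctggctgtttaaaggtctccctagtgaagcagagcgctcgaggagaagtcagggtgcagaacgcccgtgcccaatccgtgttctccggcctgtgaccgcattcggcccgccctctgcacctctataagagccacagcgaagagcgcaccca
Acta2 held 2 CArG boxes, which began 84 and 34 bases before the start, Lrat held 1 at 223 bases before it, and Des, Pdgfra, Reln and Tgfb1 held none. Of 32851 windows of this length, 8.59% held a CArG box. The TEAD motif CATTCC, searched on both strands, occurred in Acta2 and Lrat and in 12.6% of all windows, and it overlapped no CArG box. The GC box GGGCGG occurred 6 times in Reln, 5 times in Tgfb1, 2 times in Des and 1 time in Lrat, on either strand, and in 32.7% of all windows. TATAAA was in none of the 6 windows and in 12.4% of all. A match is a run of letters and not a measured binding site.

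Estimated read totals ran from 17527848 to 25833134 per mouse, and the 10 genes together held 0.004005% to 0.04475% of them, or 852 to 8404 reads. Levels are given as CPM, reads of a gene as a share of all reads of its library, scaled by TMM factors, which ran from 0.5873 in a treated mouse at 12 weeks to 1.69 in an untreated Lipa-/- mouse at 34 weeks. A count of 3 reads corresponded to 0.0946 to 0.2915 CPM. Murine Lipa stood at 202 to 323 CPM in WT mice, 16.7 to 33.4 CPM in untreated and 29.1 to 37.0 CPM in treated Lipa-/- mice. The human LIPA transcript was at 523 to 2746 CPM in treated mice and 0 in untreated Lipa-/- mice, and it was detected in 2 WT mice at 34 weeks, with 1 and 23 reads. The mice of 34 weeks carried study code 22-106 and those of 12 weeks 22-132, except untreated mouse 5 of 12 weeks with 23-004, so time and study code cannot be told apart. Because whole liver was sequenced, fewer cells of a type and less RNA per cell cannot be told apart in any of these values. The labels do not tie mice to litters or cages. Unless stated otherwise, p-values rest on the spread between the 3 animals within each group. That spread was estimated over all groups in a shared fit, and not only from the groups compared.

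In untreated Lipa-/- liver at 12 weeks, 7 of the 10 genes differed from WT: Des, Pdgfra, Pdgfrb, Thy1, Tgfb1 and Lox were higher and Lrat was lower. A gene was called at an adjusted p under 0.05 and a fold change over 2 (1 on the log2 scale) in edgeR's quasi-likelihood test over all 14533 genes. Of all genes tested, 20.2% were called higher and 9.06% lower at this time. At 34 weeks 9 of the 10 were called, the 6 higher genes now joined by Acta2, and Lrat by Reln among the lower ones, against 20.5% higher and 15.7% lower of all genes. Tagln was called at neither time. The median log2 fold change of the 10 was 1.57 at 12 weeks and 2.45 at 34 weeks, and that of all genes tested was 0.02 and -0.03. At 12 weeks the ranges of the 2 genotypes were separate for 7 of the 10 genes and for 52.7% of all genes. At 34 weeks they were separate for each of the 10 and for 60.3% of all genes. At 12 weeks 7 genes were also called without the mouse of code 23-004. Scaled by total reads alone, the calls at 34 weeks were 8 higher and 1 lower, because Tagln then passed and Reln no longer did.

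**Figure D1:**
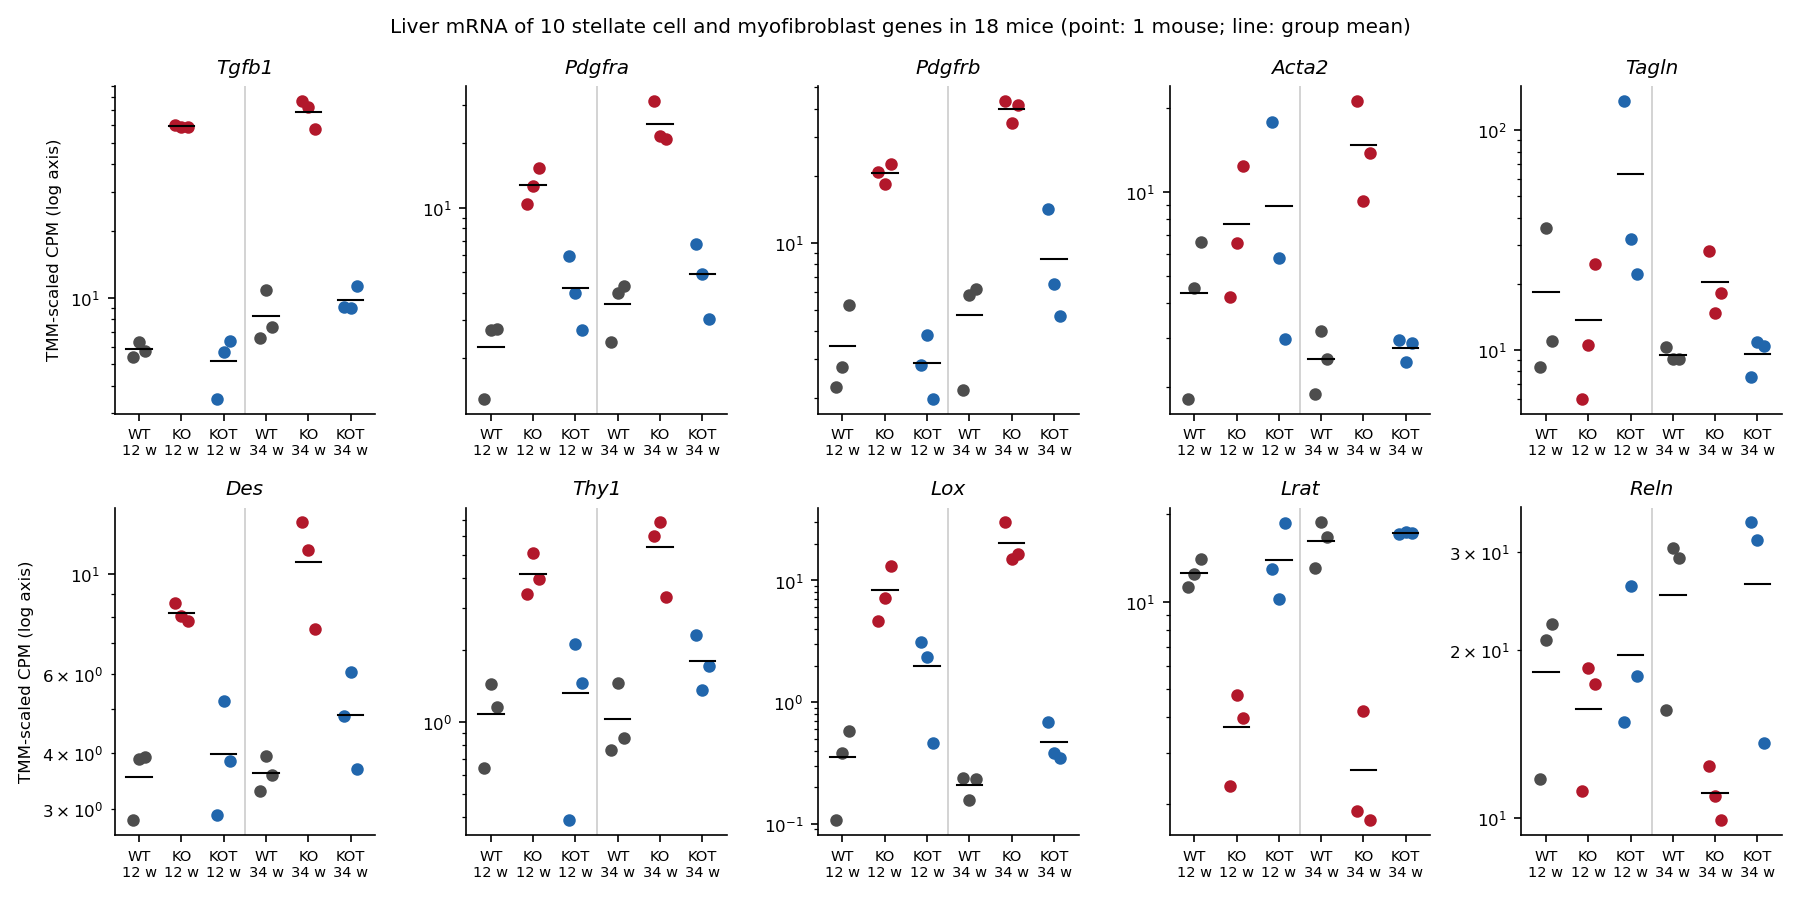
TMM-scaled CPM on log axes (each panel has its own range) for the 10 genes in 18 mice; each point is 1 mouse, each line a group mean, grey WT, red untreated Lipa-/- (KO) and blue rAAV8-treated Lipa-/- (KOT). Tgfb1 sits at 57.8 to 77.2 CPM in the 6 untreated Lipa-/- mice and at 3.50 to 11.3 CPM in the other 12, and Tagln shows 1 treated mouse at 136 CPM.

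Tgfb1 encodes the main TGF-beta ligand, the cytokine that drives collagen synthesis in myofibroblasts. At 12 weeks it stood at 5.41, 6.32 and 5.76 CPM in WT mice and at 59.9, 58.8 and 59.0 CPM in untreated Lipa-/- mice. At 34 weeks WT mice had 6.55, 10.8 and 7.40 CPM and untreated Lipa-/- mice 77.2, 72.1 and 57.8 CPM. The lowest Lipa-/- mouse was thus far above the highest WT mouse at both times, and the 3 mice of 12 weeks lay within 1.1 CPM of each other. The difference was 10.2-fold at 12 weeks (log2 3.34 ± 0.24 SE, adjusted p = 5.05e-08) and 8.33-fold at 34 weeks (log2 3.06 ± 0.24, adjusted p = 1.01e-07). Of the 15 tested TGF-beta ligands, receptors and activators (Itgb6 was not tested), 9 were higher and none lower at 12 weeks, and 13 were higher and none lower at 34 weeks. Ltbp2, a protein of elastic fibres that binds to fibrillin, differed by 4.39 on the log2 scale at 12 weeks and 5.30 at 34 weeks. Tgfb2, a second ligand of the family, differed by 3.30 and 3.69. Nrros, which anchors latent TGF-beta on macrophages and microglia, differed by 3.76 at 12 weeks, and Thbs1, which can release the ligand from its latent form, by 4.80 at 34 weeks. Fewer of the SMADs and TGF-beta response genes passed: of 13, 3 were higher at 12 weeks (Tgfbi, Pmepa1 and Tgif1) and 5 at 34 weeks, and none was lower. Ccn2, a matricellular protein, differed by 4.01 on the log2 scale at 34 weeks. Pmepa1, a feedback inhibitor of TGF-beta signalling, differed by 2.39 and 2.78, and Tgfbi, a secreted matrix protein, by 1.89 at 12 weeks. The median log2 difference was 1.80 and 2.91 for the TGF-beta list and 0.55 and 0.69 for the response list, beside 0.02 and -0.03 for all genes. Beside Tgfb1, the 8 macrophage markers were all higher at both times, with summed levels of 4230 to 9076 CPM in untreated Lipa-/- mice against 48.1 to 222 CPM in WT mice, and none was at 0 in any mouse. Their part in the Tgfb1 difference was not tested.

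Pdgfra and Pdgfrb encode the receptor tyrosine kinases for platelet-derived growth factors, and Pdgfrb is the one through which stellate cells divide. Pdgfrb stood at 2.25, 2.78 and 5.24 CPM in WT mice and at 20.9, 18.4 and 22.7 CPM in untreated Lipa-/- mice at 12 weeks. At 34 weeks the WT mice had 2.18, 5.83 and 6.19 CPM and the Lipa-/- mice 43.5, 34.4 and 41.5 CPM. The groups were separate at both times, and the fold was 6.03 at 12 weeks (log2 2.59 ± 0.44, adjusted p = 0.000185) and 8.33 at 34 weeks (log2 3.06 ± 0.44, adjusted p = 2.83e-05). Pdgfra had a like pattern at a lower level. Its values were 1.29, 2.68 and 2.72 CPM in WT and 10.4, 12.6 and 15.4 CPM in Lipa-/- mice at 12 weeks. At 34 weeks they were 2.36, 4.02 and 4.32 CPM in WT and 31.5, 21.6 and 21.0 CPM in Lipa-/- mice. These are differences of 5.72-fold (log2 2.52 ± 0.38, adjusted p = 6.23e-05) and 6.88-fold (log2 2.78 ± 0.37, adjusted p = 1.47e-05). Of the 6 PDGF ligands and receptors, the same 4 were higher at both times, both receptors and the ligands Pdgfa and Pdgfb. Pdgfb, the ligand of Pdgfrb, was 18.4-fold higher at 12 weeks and 11.1-fold higher at 34 weeks, and Pdgfa 4.07-fold and 4.37-fold. Pdgfc and Pdgfd had log2 differences of 0.67 and 0.08 at 12 weeks and were not called at either time. The median of the 6 was 2.27 and 2.45.

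The 3 cytoskeletal genes did not move together. Acta2, smooth muscle alpha-actin, is the most used marker of the activated myofibroblast, and Tagln (transgelin, SM22) binds actin in the same cells. At 12 weeks Acta2 stood at 1.82, 4.55 and 6.65 CPM in WT and at 4.22, 6.56 and 12.4 CPM in untreated Lipa-/- mice. These groups overlapped, and the difference of 1.78-fold did not pass (log2 0.83 ± 0.56, 95% interval -0.36 to 2.01, adjusted p = 0.262). At 34 weeks Acta2 was at 1.89, 3.19 and 2.53 CPM in WT and at 21.3, 9.31 and 13.9 CPM in Lipa-/- mice, with no overlap. That difference, 5.80-fold, passed (log2 2.54 ± 0.59, adjusted p = 0.00193). Tagln was at 8.36, 36.0 and 10.9 CPM in WT and at 6.00, 10.5 and 24.7 CPM in Lipa-/- mice at 12 weeks. WT mouse 2 was above every untreated Lipa-/- mouse of that time, and the log2 difference of -0.43 ± 0.63 was 0.51 without that mouse. At 34 weeks WT mice had 10.3, 9.10 and 9.07 CPM and Lipa-/- mice 28.3, 14.8 and 18.2 CPM. They did not overlap, but the 2.15-fold difference missed the threshold (log2 1.10 ± 0.64, adjusted p = 0.169). It was called with only these 6 mice in the fit (log2 1.16, adjusted p = 0.00856), with total-read scaling (1.78, adjusted p = 0.0264) and in limma on TPM (1.68, adjusted p = 0.0171).

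Des, desmin, is the intermediate filament of muscle and of rodent stellate cells, and it was the steadiest of the 3. It stood at 2.84, 3.88 and 3.93 CPM in WT and at 8.62, 8.04 and 7.84 CPM in untreated Lipa-/- mice at 12 weeks. At 34 weeks it was at 3.30, 3.94 and 3.58 CPM in WT and at 13.0, 11.3 and 7.54 CPM in Lipa-/- mice. The groups did not overlap, with differences of 2.30-fold (log2 1.20 ± 0.27, adjusted p = 0.00193) and 2.93-fold (log2 1.55 ± 0.27, adjusted p = 0.000161). Of 13 tested genes of the contractile apparatus (Actg2 was not tested), Des, Tpm1 and Synpo2 were higher at 12 weeks and none was lower. At 34 weeks Acta2, Des, Tpm1, Smtn and Synpo2 were higher and Tpm2 was lower, by 1.88 on the log2 scale. Synpo2, an actin-bundling protein of muscle, differed by 2.27 and 2.87, and Tpm1, a tropomyosin, by 1.56 and 1.71. The median of the list was 0.02 and 1.10. Smooth muscle genes of this list were mixed. Smtn, called at 34 weeks, was then at 9.51 to 15.9 CPM in Lipa-/- mice and 1.77 to 5.12 CPM in WT mice. Myh11 and Cnn1 were called at neither time. Myh11, smooth muscle myosin, stood at 0.767, 2.13 and 1.71 CPM in WT and at 1.70, 1.20 and 1.62 CPM in Lipa-/- mice at 34 weeks, and its log2 difference was -0.04 (adjusted p = 0.972). Cnn1, calponin, was at most at 1.65 CPM in all 18 mice, with a log2 difference of 0.22 at 34 weeks (adjusted p = 0.9). On opposite strands, exons of Acta2 share 301 bases with Stambpl1 and exons of Tagln share 1241 bases with the lncRNA Gm48529, and reads of such pairs cannot be told apart where strand was not recorded.

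Thy1, a surface protein anchored by glycosylphosphatidylinositol, is used for portal fibroblasts. It had few reads, 4 to 190 per mouse. At 12 weeks it was at 0.643, 1.44 and 1.15 CPM in WT and at 3.44, 5.09 and 3.96 CPM in untreated Lipa-/- mice. At 34 weeks it was at 0.767, 1.46 and 0.856 CPM in WT and at 5.99, 6.84 and 3.35 CPM in Lipa-/- mice. Every Lipa-/- mouse was above every WT mouse, by 3.84-fold on average at 12 weeks (log2 1.94 ± 0.47, adjusted p = 0.0033) and 5.18-fold at 34 weeks (log2 2.37 ± 0.47, adjusted p = 5e-04). Of 13 tested genes of portal fibroblasts and mesothelium (Gli1 was not tested), 9 were higher at 12 weeks and 12 at 34 weeks, and none was lower. Mfap4, a microfibril protein, was 9.91-fold higher at 12 weeks and 14.8-fold at 34 weeks. Pi16, a marker of adventitial fibroblasts, was 11.5-fold and 11.9-fold higher, and Fbln2, an elastic fibre protein of portal fibroblasts, 11.9-fold at 34 weeks. Wt1, the mesothelial transcription factor, was 24.9-fold higher at 12 weeks. WT mice had at most 0.314 CPM of Pi16 at 12 weeks, 0.197 CPM at 34 weeks and 0.209 CPM of Wt1 at 12 weeks. Such levels are near those of 3 reads, so the folds of both genes are imprecise (log2 SE 0.94 to 0.95). The list's median log2 difference was 1.94 and 2.39. T cells also make Thy1, and 6 of the 8 T cell markers were higher at 12 weeks and 5 at 34 weeks. Their summed level was 10.4 to 19.8 CPM in untreated Lipa-/- mice and 3.27 to 7.85 CPM in WT mice, and Trac was at 0 in 1 of the 18 mice. In treated mice of 12 weeks that sum was 11.4 to 16.1 CPM, and Thy1 was at 0.389, 2.12 and 1.46 CPM. The part of T cells in the Thy1 difference was not tested.

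Lox, lysyl oxidase, cross-links collagen and elastin outside the cell and had the largest fold change of the 10. It was nearly silent in WT liver, with 0.107, 0.383 and 0.576 CPM at 12 weeks (2, 8 and 11 reads) and 0.236, 0.158 and 0.234 CPM at 34 weeks (4, 4 and 6 reads). Untreated Lipa-/- mice had 4.68, 7.15 and 13.1 CPM at 12 weeks and 30.0, 14.9 and 16.6 CPM at 34 weeks. No Lipa-/- mouse came near a WT mouse, and with so few WT reads the folds of 22.9 (log2 4.52 ± 0.63, adjusted p = 3.05e-05) and 96.6 (log2 6.59 ± 0.68, adjusted p = 1.16e-06) carry wide 95% intervals, 3.19 to 5.85 and 5.15 to 8.04 on the log2 scale. Of the 14 lysyl oxidases and collagen cross-linking genes, 8 were higher at 12 weeks and 10 at 34 weeks, and none was lower. Loxl1, which acts on elastin, was 8.87-fold and 18.7-fold higher. Plod2, which hydroxylates collagen lysines for stable cross-links, was 9.69-fold and 22.6-fold higher. P4ha3, a prolyl hydroxylase subunit, had no read in any WT mouse and was at least 5.37-fold higher at 12 weeks and at least 10.4-fold higher at 34 weeks, against a floor of 3 reads in each WT mouse. Of the 15 scar matrix genes, 14 were higher at both times and none was lower. Col1a1, the main fibrillar collagen chain, was 42.7-fold and 77.6-fold higher and Col1a2, its partner chain, 34.5-fold and 51.6-fold. Timp1, which inhibits matrix metalloproteinases, was at or under 2 reads in each WT mouse at 12 weeks and at least 113-fold higher, and at 34 weeks it was 147-fold higher. Fn1, fibronectin, which hepatocytes also secrete, was the gene that was not called, with log2 differences of -0.24 and -0.21. Median log2 differences were 2.11 and 2.21 for the cross-linking list and 3.19 and 4.27 for the scar matrix.

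The markers of the resting stellate cell went down or did not pass. Lrat makes retinyl esters from retinol, the storage form of vitamin A. It stood at 11.2, 12.5 and 14.0 CPM in WT and at 2.31, 4.78 and 3.96 CPM in untreated Lipa-/- mice at 12 weeks. At 34 weeks WT mice had 13.0, 18.8 and 16.7 CPM and Lipa-/- mice 1.89, 4.21 and 1.76 CPM. The groups were separate at both times, and Lrat was 3.41-fold lower at 12 weeks (log2 -1.77 ± 0.33, adjusted p = 0.000456) and 6.18-fold lower at 34 weeks (log2 -2.63 ± 0.34, adjusted p = 1.05e-05). In limma on TPM the difference at 12 weeks was below the 2-fold limit (log2 -0.96, adjusted p = 0.0166). Reln, reelin, is a secreted glycoprotein that stellate cells make in liver. At 12 weeks it was at 11.7, 20.8 and 22.3 CPM in WT and 11.2, 18.6 and 17.4 CPM in Lipa-/- mice, which overlapped (log2 -0.22 ± 0.35, 95% interval -0.96 to 0.52, adjusted p = 0.661). At 34 weeks it was at 15.6, 30.4 and 29.3 CPM in WT and 12.4, 11.0 and 9.92 CPM in Lipa-/- mice, 2.26-fold lower (log2 -1.18 ± 0.36, adjusted p = 0.0117). That call was lost with total-read scaling (log2 -0.58, adjusted p = 0.25) and in limma on TPM (-0.66, adjusted p = 0.232). Hepatocyte markers were lower in the same mice, 4 of 8 at 12 weeks and 6 of 8 at 34 weeks, with summed levels of 22560 to 59780 CPM against 60930 to 85080 CPM in WT mice.

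The wider list of resting stellate genes was split. Of 16, 4 were higher at each time, with Cygb, Hand2 and Des among them at both, and Lrat, Ngfr, Vipr1 and Angptl6 were lower at 12 weeks, joined by Reln and Colec10 at 34 weeks. Cygb, the globin of stellate cells, was 10.6-fold and 13.4-fold higher. Angptl6, an angiopoietin-like secreted protein, was 6.83-fold and 12.4-fold lower. In the list of retinoid storage and signalling, 1 of 12 tested genes was higher and 4 were lower at 12 weeks, and 2 were higher and 6 lower at 34 weeks (Stra6 was not tested). Medians were -0.17 and -0.30 for the resting stellate list and -0.55 and -1.12 for the retinoid list. Cyp26a1 and Cyp26b1, which break down retinoic acid, were 57.3-fold and 65.4-fold lower at 12 weeks and 32.2-fold and 60.8-fold lower at 34 weeks. In untreated Lipa-/- mice Cyp26b1 was at 0.071 to 0.162 CPM at 12 weeks and 0.032 to 0.309 CPM at 34 weeks. These are few reads, so its folds are imprecise (log2 SE 1.17 and 1.08). Aldh1a1, which makes retinoic acid, was 13.2-fold lower at 34 weeks, while Aldh1a2, another enzyme of that step, was at or under 3 reads in each WT mouse and at least 8.94-fold higher. Within each mouse, the ratio of Lox to Lrat in TPM was 0.0102 to 0.0498 in the 6 WT mice, 1.76 to 3.92 in untreated Lipa-/- mice at 12 weeks and 4.20 to 18.6 at 34 weeks. Ratios of Lrat to Reln were lower in untreated Lipa-/- mice too, 0.106 to 0.205 against 0.316 to 0.561 in WT mice.

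**Figure D2:**
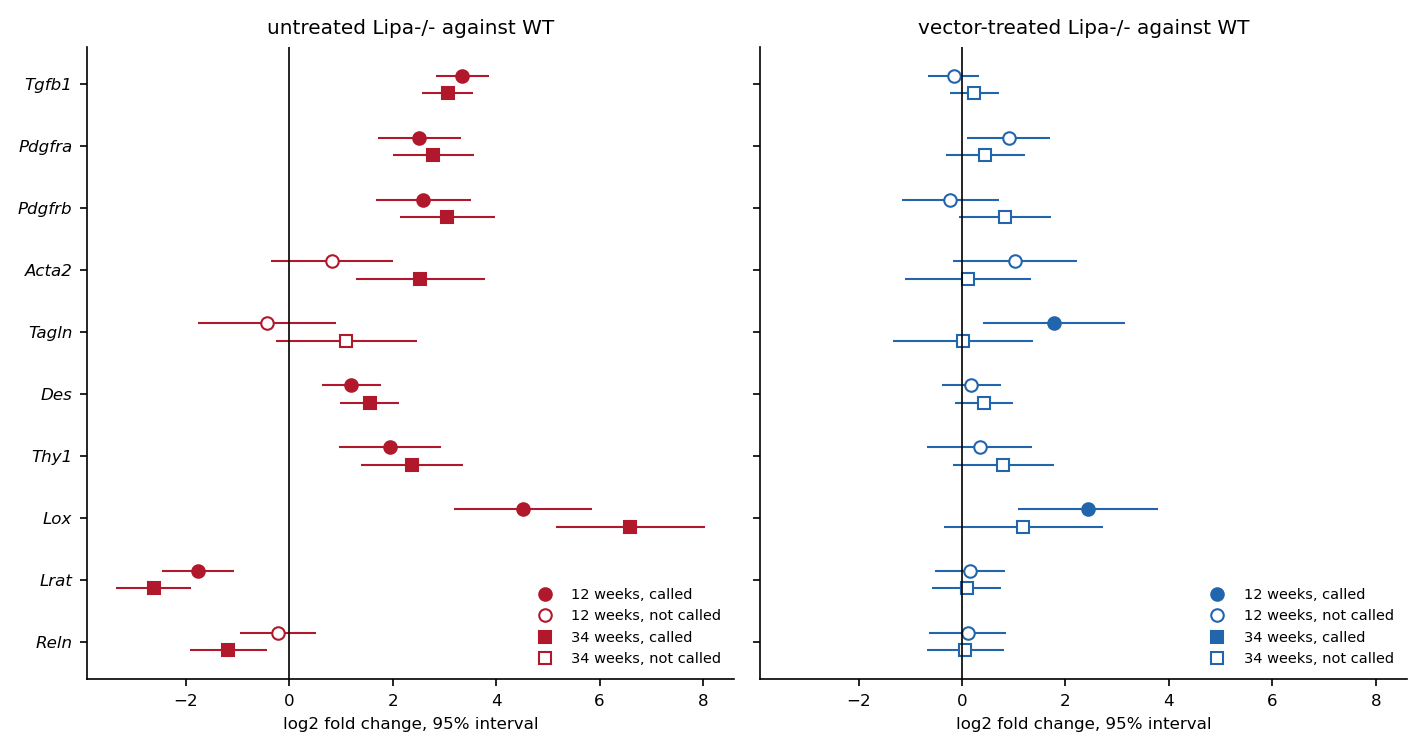
Log2 fold change against WT with its 95% interval for each gene, untreated Lipa-/- mice on the left and rAAV8-treated mice on the right, circles 12 and squares 34 weeks, filled where called. On the left 7 genes at 12 weeks and 9 at 34 weeks are filled; on the right Tagln (1.78) and Lox (2.43) at 12 weeks are filled, both not called without treated mouse 10.

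In rAAV8-treated Lipa-/- liver at 12 weeks, 2 of the 10 genes were called against WT, Tagln and Lox, both higher, where 13.6% of all genes were called higher and 12% lower. For none of the 10 did the 3 treated and 3 WT mice separate, against 52.5% of all genes. Tagln was at 136, 31.9 and 22.2 CPM in treated mice, and WT mouse 2 was within that range (log2 1.78 ± 0.65, adjusted p = 0.041). Lox was at 3.11, 2.34 and 0.460 CPM (32, 43 and 6 reads), with the lowest mouse between WT mice (log2 2.43 ± 0.64, adjusted p = 0.0106). Both calls needed treated mouse 10. Without it none of the 10 was called, Tagln differed by 0.47 (adjusted p = 0.555) and Lox by 1.94 (adjusted p = 0.0609). Acta2 was also highest in that mouse, 17.9 CPM against 5.81 and 2.99 CPM in the other treated mice, and its log2 difference of 1.02 ± 0.57 (adjusted p = 0.163) was -0.03 without it. Mouse 10 had the lowest total of reads and the lowest TMM factor of the 18, the highest Col1a1 of its group, 55.8 against 11.2 and 11.0 CPM, and the highest summed macrophage markers, 2435 against 1114 and 586.7 CPM. Its Myh11 was at 3.21 CPM against 1.36 and 0.613 CPM and its Cnn1 at 1.65 against 0.217 and 0.307 CPM, and its Thy1 and Tgfb1 were the lowest of the group. The part of these values in the Tagln and Lox calls was not tested.

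The other 8 genes of treated mice were not called against WT at 12 weeks. Pdgfra came nearest, at 5.93, 4.02 and 2.68 CPM (log2 0.90 ± 0.38, adjusted p = 0.0692), and it passed without treated mouse 12 (1.07, adjusted p = 0.0435). Tgfb1 was at 3.50, 5.71 and 6.36 CPM, a log2 difference of -0.16 with a 95% interval of -0.65 to 0.33. Pdgfrb was at 2.82, 3.86 and 1.99 CPM, with an interval of -1.17 to 0.71. Lrat was at 12.9, 10.2 and 18.7 CPM, with an interval of -0.52 to 0.82, and Des at 2.92, 5.22 and 3.83 CPM, with an interval of -0.39 to 0.75. The intervals of Tgfb1, Des and Lrat stayed within the 2-fold limit of a call on both sides, while that of Acta2 reached from -0.18 to 2.22.

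Among the lists, the scar matrix had the most calls between treated and WT mice at 12 weeks, with 9 of 15 genes higher and 1 lower (Bgn). Of all genes, 13.6% were called higher and 12% lower. The median of the scar matrix was 1.32 beside 0.06 for all genes. Without treated mouse 10, 5 of its genes were higher and none lower. The contractile list had 1 gene higher (Tagln) and 2 lower, and 0 and 1 without that mouse. The other lists had 2 higher and 1 lower of 16 (resting stellate), 3 and 0 of 13 (portal fibroblast and mesothelium), 2 and 2 of 15 (TGF-beta ligands, receptors and activators), 1 and 2 of 13 (SMADs and response genes), 0 and 0 of 6 (PDGF), 3 and 2 of 14 (lysyl oxidases) and 1 and 2 of 12 (retinoid). Of the 3 higher lysyl oxidase genes, P4ha3 had at most 4 reads in a treated mouse and 0 in WT mice. Against the floor of 3 reads no increase of P4ha3 is shown. Without treated mouse 10 the counts of these other lists were, in the same order, 1 and 1, 2 and 0, 1 and 2, 0 and 2, 0 and 0, 1 and 1, and 1 and 1. The share of all genes called without that mouse is not given, here or for the lists below. Changes in these counts therefore cannot be told apart from a general change in calls.

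At 34 weeks none of the 10 genes was called between treated and WT mice by edgeR, and none had an unadjusted p under 0.05, where 0.22% of all genes were called in either direction. The adjusted p of the 10 was at least 0.894. Tgfb1 was at 9.02, 8.96 and 11.3 CPM, overlapping the WT mice, and its 95% interval was -0.23 to 0.71 on the log2 scale. Lrat was at 17.2, 17.4 and 17.2 CPM, with an interval of -0.57 to 0.76. Acta2 was at 2.97, 2.46 and 2.88 CPM and Tagln at 7.52, 10.9 and 10.4 CPM, with intervals of -1.10 to 1.34 and -1.34 to 1.37. Lox was the gene whose groups did not overlap, at 0.691, 0.382 and 0.350 CPM (17, 7 and 9 reads) above 0.158 to 0.236 CPM in WT, and 8.89% of all genes did not overlap. Its log2 difference of 1.19 had an interval of -0.36 to 2.73 and did not pass (adjusted p = 0.954). Pdgfrb was at 14.2, 6.56 and 4.67 CPM, so treated mouse 9 lay above the highest WT mouse. None of the 9 pathway lists had a gene called at this time, and their medians ran from -0.04 (retinoid) to 0.54 (scar matrix).

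Set against untreated Lipa-/- mice, treated mice differed in 8 of the 10 genes at 12 weeks. Tagln and Lrat were higher and Des, Pdgfra, Pdgfrb, Thy1, Tgfb1 and Lox lower, where 16.2% of all genes were called higher and 25.3% lower. Tgfb1 was 11.3-fold lower (log2 -3.50 ± 0.25, adjusted p = 2.14e-07), Pdgfrb 7.07-fold lower and Lox 4.23-fold lower, and Lrat was 3.79-fold higher (log2 1.92 ± 0.33, adjusted p = 0.000216). The higher Tagln, 4.61-fold, was not called without treated mouse 10 (log2 0.95, adjusted p = 0.176), and Des then also fell short of the 2-fold limit (-0.88, adjusted p = 0.0181). The higher Lrat was not called in limma on TPM (0.54, adjusted p = 0.122). At 34 weeks 9 genes were called, with Lrat and Reln higher and all others but Tagln lower, against 12.8% higher and 18.6% lower of all genes. Lox was 42.4-fold lower (log2 -5.41 ± 0.62, adjusted p = 5.16e-06), Tgfb1 7.06-fold and Acta2 5.34-fold, and Lrat was 6.60-fold higher (log2 2.72 ± 0.34, adjusted p = 1.1e-05). These contrasts use the same untreated mice as the contrasts with WT. By total reads, the calls were 1 higher and 6 lower at 12 weeks and 1 higher and 8 lower at 34 weeks. Thy1, whose deposited effective length varied 3.39-fold between mice, lost its call at 12 weeks with length offsets (log2 -1.23, adjusted p = 0.0866).

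Across the lists, 4 of 6 PDGF genes, 9 of 14 lysyl oxidase genes, 8 of 15 TGF-beta genes, 7 of 13 SMAD and response genes and 10 of 15 scar matrix genes were lower in treated than untreated mice at 12 weeks, with none higher. At 34 weeks the counts were 4, 9, 13, 3 and 14, again with none higher. Of all genes, 16.2% were called higher and 25.3% lower at 12 weeks, and 12.8% and 18.6% at 34 weeks. Contractile genes were 2 higher and 5 lower at 12 weeks and 0 and 5 at 34 weeks, and portal fibroblast and mesothelial genes 1 and 6, then 0 and 10. Without treated mouse 10 the counts at 12 weeks were 0 and 3 for contractile genes and 0 and 7 for portal fibroblast and mesothelial genes, so none of the higher calls in these lists was left. Of the resting stellate list, 2 were higher and 4 lower at 12 weeks, and at 34 weeks 6 were higher (Lrat, Reln, Ngfr, Colec10, Vipr1 and Angptl6) and 4 lower (Cygb, Hand2 and Des among them), and the genes named here were called in the reverse direction between untreated and WT mice. Retinoid genes were 4 higher and 1 lower, then 6 higher and 2 lower. Without that mouse the counts at 12 weeks were 3 and 3 for the resting stellate list and 4 and 0 for the retinoid list, and 4, 9, 9, 8 and 13 genes were lower in the PDGF, lysyl oxidase, TGF-beta, SMAD and scar matrix lists.

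**Figure D3:**
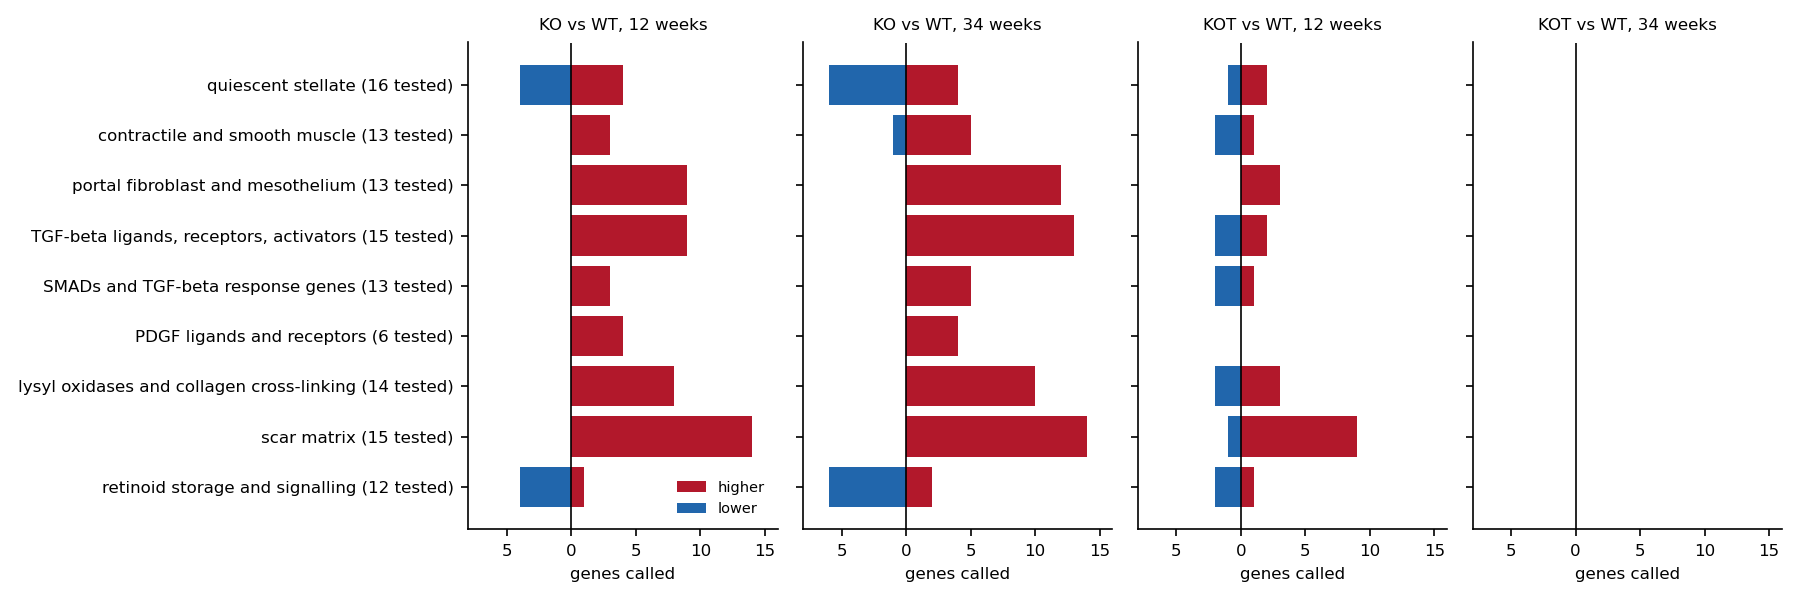
Number of genes called higher (red, right of 0) and lower (blue, left of 0) than WT in each of 9 gene lists, whose numbers of genes tested stand beside their names, in 4 comparisons (KO untreated, KOT treated). The scar matrix list has 14, 14, 9 and 0 higher genes from left to right (5 in place of 9 without treated mouse 10), and the panel of treated mice at 34 weeks is empty.

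Between 12 and 34 weeks, no member was called in WT mice or in untreated Lipa-/- mice by edgeR, where 0.323% and 0.495% of all genes were called in either direction. At an unadjusted p under 0.05 there was 1 gene in WT mice, Tgfb1, and there were 3 in untreated mice: Pdgfra, Pdgfrb and Lox. In untreated mice those 3 genes had no overlap between the times, and neither had 27.4% of all genes. Lox was at 4.68 to 13.1 CPM and then 14.9 to 30.0 CPM. The adjusted p-values of the 3 genes were 0.193, 0.268 and 0.213. The difference between untreated and WT mice was itself compared between the times. It was not called for any of the 10 genes (0.0619% of all genes), with unadjusted p of 0.0376 for Lox (log2 2.08 ± 0.92 larger at 34 weeks) and 0.0468 for Acta2 (1.71 ± 0.80), and adjusted p of 0.485 and 0.52. Acta2 and Reln, called at 34 weeks and not at 12 weeks, are thus not shown to differ between the times.

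In treated mice 4 of the 10 were called between the times, Pdgfrb higher at 34 weeks and Acta2, Tagln and Lox lower, where 17.5% of all genes were called higher and 14.5% lower. Pdgfrb was 2.91-fold higher (log2 1.54 ± 0.44, adjusted p = 0.0101). Acta2, Tagln and Lox were 3.17-fold, 6.60-fold and 4.05-fold lower, with adjusted p of 0.0278, 0.00451 and 0.0137. Those 3 were not called without treated mouse 10 of 12 weeks (adjusted p of 0.35, 0.0587 and 0.0756), and Pdgfrb was not called without treated mouse 9 of 34 weeks (log2 0.94, adjusted p = 0.0925). Scaled by total reads the split was 3 higher and 1 lower. The difference between treated and WT mice did not pass a test between the times for any member by edgeR (18.4% of all genes), and none had an unadjusted p under 0.05.

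Levels of different genes can be set beside each other only per length, as the deposited TPM values (transcript share after division by effective length). In WT liver at 12 weeks Tagln (11.7 ± 8.30 TPM, SD, n = 3) and Reln (5.51 ± 2.52) led, followed by Tgfb1 (2.55 ± 0.28), Acta2 (2.11 ± 1.38), Lrat (2.11 ± 0.48), Thy1 (1.17 ± 0.92), Des (1.09 ± 0.26), Pdgfrb (0.585 ± 0.349), Pdgfra (0.308 ± 0.132) and Lox (0.0738 ± 0.0559). Neighbours in that order overlapped between mice except Reln with Tgfb1 and Pdgfra with Lox. In WT liver at 34 weeks Reln (8.98 ± 4.37 TPM) and Tagln (7.25 ± 1.43) changed places within their spread, and Lox was again last (0.0492 ± 0.0113). In untreated Lipa-/- liver Tgfb1 led at both times, with 36.3 ± 2.20 and 58.6 ± 16.8 TPM, above Tagln in every mouse. Lox was in place 9 at 12 weeks (2.31 ± 1.35 TPM) and 6 at 34 weeks (7.92 ± 4.63), and Lrat was last at both (0.848 ± 0.301 and 0.795 ± 0.340), below every other gene in every mouse. Reln was in place 4 at 12 weeks, against place 2 in WT mice, though its level was much the same (5.16 ± 1.80 against 5.51 ± 2.52 TPM). By mean, Tgfb1 and Thy1 stood above Reln there and below it in WT mice. At 34 weeks Reln was in place 9 (5.18 ± 1.84 TPM), against place 1 in WT mice (8.98 ± 4.37). In treated mice the order at 34 weeks began with Reln (10.1 ± 3.92 TPM), Tagln (8.34 ± 0.23), Tgfb1 (5.93 ± 1.36) and Lrat (3.69 ± 0.35), the same 4 genes in the same places as in WT mice of that time, and ended with Lox (0.124 ± 0.064). At 12 weeks Tagln led (23.6 ± 19.3 TPM). TPM is not TMM-scaled, so its levels between groups also move with what else the liver expressed.

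**Figure D4:**
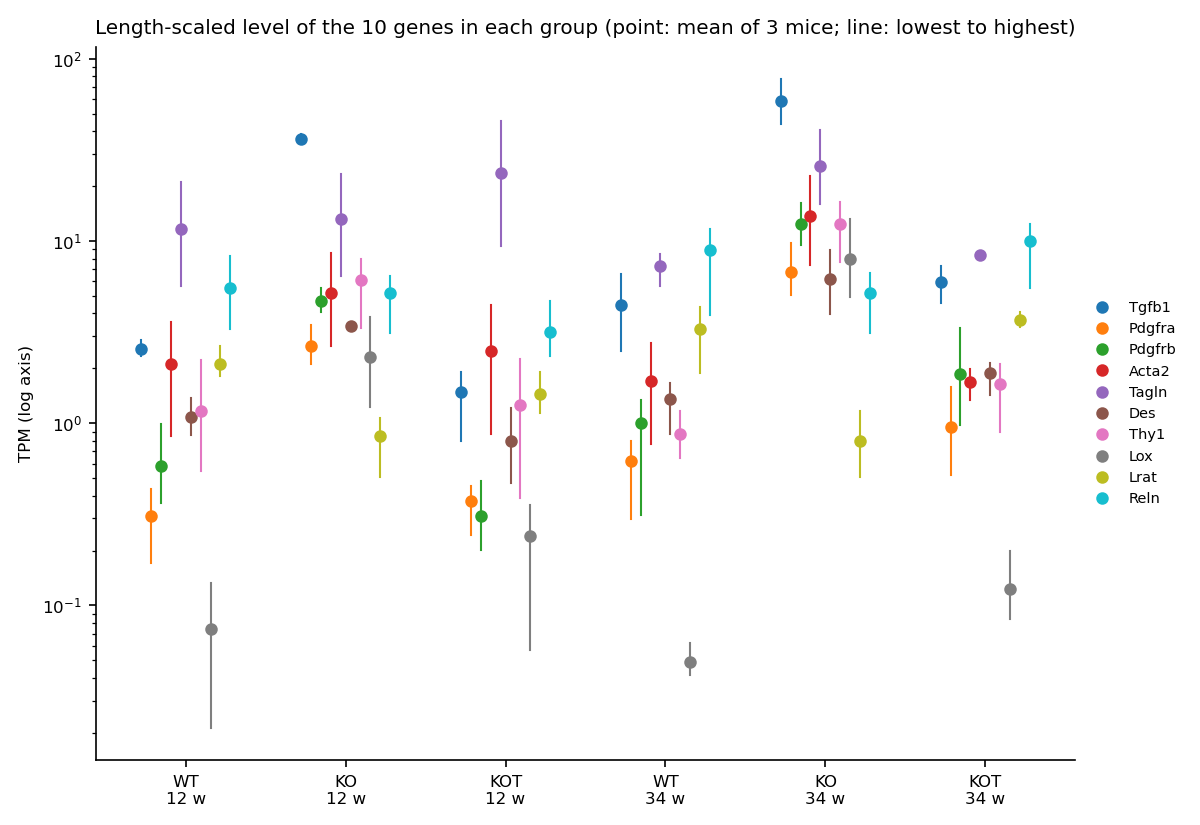
TPM on a log axis of the 10 genes in each of the 6 groups; points are means of 3 mice and lines run from the lowest to the highest mouse. By mean, Lox is the lowest gene in WT and treated mice and Lrat the lowest in untreated Lipa-/- mice, where Tgfb1 is the highest with 36.3 TPM at 12 weeks and 58.6 TPM at 34 weeks.

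Mice of 1 group also differed among themselves. After the group means were removed, log2 CPM of Acta2 and Lox had the highest Pearson correlation of all pairs, 0.86 over the 18 mice. Acta2 also went with Pdgfra (0.79) and Tagln (0.78), and Pdgfra with Lox (0.78) and Pdgfrb (0.76). Reln went with Pdgfrb (0.74), Pdgfra (0.71) and Des (0.69). Thy1 went with Tgfb1 (0.80) and Des (0.69), while Acta2 with Des was at -0.04 and Tgfb1 with Lox at -0.37. Lrat reached at most 0.32 with another member. These are descriptions over mice that share libraries, scaling and the 6 groups, with 12 residual degrees of freedom once the group means were removed. Treated mouse 10 of 12 weeks, with the largest deviations of Acta2 (1.38) and Tagln (1.57), weighs on the correlations of the contractile genes. Lox had 2 to 11 reads in WT mice, so its deviations there also hold counting error. Spread within groups was smallest for Tgfb1 (SD 0.27 on the log2 scale) and Des (0.30) and largest for Tagln (0.87), Lox (0.79) and Acta2 (0.78).

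**Figure D5:**
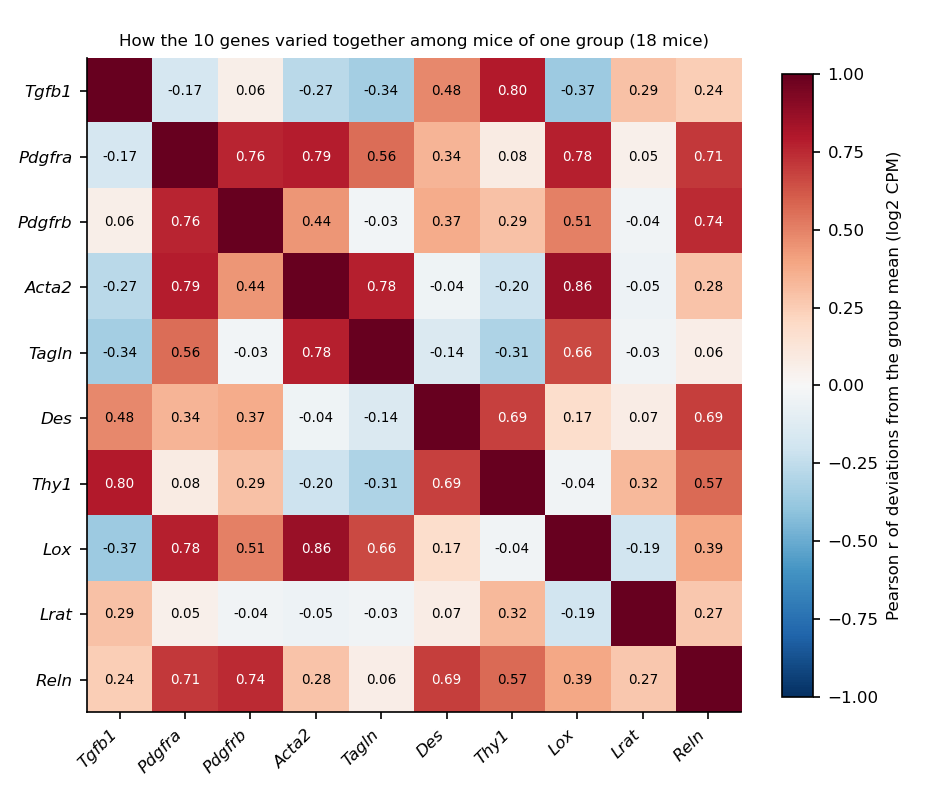
Pearson correlation between the 10 genes of the deviations from the group mean in log2 CPM, over 18 mice, red positive and blue negative. Acta2, Tagln, Pdgfra and Lox share values from 0.56 to 0.86, and Tgfb1 has values below 0 with Acta2, Tagln, Pdgfra and Lox.

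Each member was also matched with the gene of most similar pattern, the smallest root mean square difference of centred log2 CPM over the 18 mice among 12589 genes whose average reached 1 CPM. The closest matches were Cotl1 for Tgfb1 (0.25), Eva1b for Des (0.25), Unc5b for Pdgfrb (0.26), Mxra7 for Pdgfra (0.30) and Stat5b for Reln (0.32). Lrat was nearest to Enpep (0.37), which encodes an aminopeptidase, and Thy1 to Cxcr3 (0.38), a chemokine receptor of activated T cells. Acta2 with Cacna2d1 (0.46), a calcium channel subunit, Lox with Dpep1 (0.52), a dipeptidase, and Tagln with Ms4a4d (0.55) were further apart. Col1a2 was in place 4 for Lox (0.63).

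Markers of other liver cells moved in the same comparisons. Between untreated Lipa-/- and WT mice, the macrophage genes Cd68, Adgre1 and Csf1r differed by 6.25, 2.41 and 2.50 on the log2 scale at 12 weeks and 5.37, 1.5 and 1.54 at 34 weeks, all called. Cd3e, of the T cell receptor complex, differed by 1.76 and 1.71 and was called, Cd3g by 1.70 and 1.18 and was called at 12 weeks, and Cd3d by 1.60 and 1.16 and was not. Of 8 endothelial markers 2 were higher (Lyve1 and Vwf) and 3 lower (Kdr, Clec4g and Tek) at both times, and Pecam1 and Cdh5 had differences between -0.53 and 0.47. Of 6 cholangiocyte markers 2 were higher at 12 weeks and 5 at 34 weeks, among them Krt19 (0.17, not called, then 2.17) and Krt7 (0.80, not called, then 2.07) and Epcam (1.68 and 2.69). Their summed level was 39.7 to 89.9 CPM against 13.8 to 26.0 CPM in WT mice. Of the hepatocyte markers, Alb differed by -0.78 (not called) and -1.10, Ttr by -1.02 and -1.97 and Apoa1 by 0.24 and -0.39 (not called). Of 6 platelet markers Pf4, which macrophages also make, was called at both times (3.50 and 3.29), Ppbp (2.64 and 0.83) and Itga2b (0.60 and -0.20) were not, and the sum was 8.90 to 13.7 CPM against 2.09 to 5.19 CPM. Gp1bb was at 0 in all treated mice of 12 weeks.

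In treated mice against WT, 6 of 8 macrophage and 5 of 8 T cell markers were higher at 12 weeks, and at 34 weeks 2 (Trem2 and Gpnmb) and 1 (Cd8a). Endothelial markers were 1 higher and 1 lower at 12 weeks, cholangiocyte markers 0 and 1, hepatocyte markers 1 and 2 and platelet markers 2 and 0, and none of these 4 lists had a call at 34 weeks. Without treated mouse 10, 6 macrophage, 2 T cell and 0 platelet markers were higher at 12 weeks, and hepatocyte markers were 0 higher and 2 lower. Summed macrophage markers were at 586.7 to 2435 CPM in treated mice at 12 weeks and 211 to 494 CPM at 34 weeks. How far the changes in these cells took part in those of the 10 genes was not tested.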

How the data were processed

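Libraries were made from polyA RNA of frozen liver with ERCC spike-ins. Reads were paired-end and quantified by the authors with Salmon against the Ensembl cDNA of GRCm39, and tximport gave gene tables. The deposited tables hold estimated counts, of which 19.4% were not whole, TPM and effective gene lengths in bases, and they were used here. A deposited table of the authors' pairwise DESeq2 comparisons (fold changes and p-values) was not used. The submitters' processing notes name R 4.3.0 and DESeq2 1.40.1. No column was left out for lack of a sample.

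Counts were rounded, genes with more than 100 reads over 18 mice kept, and a mean per group (6 groups) fitted with edgeR 4.0.16 in R 4.3.3 (TMM, quasi-likelihood test, Benjamini-Hochberg over 14533 genes). This kept the study's filter and limits, an adjusted p under 0.05 and an absolute log2 fold change over 1. CPM values are TMM-scaled. SE and 95% intervals come from the F statistic. Lists were resting stellate, contractile, portal fibroblast and mesothelium, TGF-beta, SMAD and response, PDGF, lysyl oxidase, scar matrix and retinoid genes, and markers of 6 other cell types. Named were all members, the 3 list genes with the largest called difference in untreated against WT mice at each time, the first 3 markers of each cell type and the most similar gene. Genes outside that rule (Myh11, Cnn1, Fn1, Pdgfc, Pdgfd, Gp1bb, Trem2, Gpnmb, Cd8a and those in lists of calls) were named after their values were seen. Some genes that the rule names are not reported here, though the list counts include them. Members and lists were chosen with earlier results of these data known. Alternatives were DESeq2 1.42.0 with length offsets, edgeR with length offsets, upper-quartile and total-read scaling, no filter, filterByExpr, only the groups compared, limma 3.58.1 on log2(TPM + 0.5), other thresholds, each mouse left out and a mouse-number block. Scripts were tested on simulated data. Depth limits precision as given beside the values. Floors of 3 reads cover counting error only.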

Additional observations from a re-analysis of the deposited data

How the results depend on the processing

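Over 70 values (10 genes in 7 comparisons) and 980 alternative values, 888 kept direction and side of the threshold, 38 lost a call, 15 gained one and 39 changed sign, none of them a called value. Scaling by total reads in place of TMM moved the median of all genes by 0.47 and 0.63 (untreated against WT at 12 and 34 weeks), -0.40 and 0.09 (treated against WT), -0.87 and -0.54 (treated against untreated) and 0.64 (treated mice between times) on the log2 scale. Levels of low genes are limited by depth, as for Lox with 2 to 11 reads in WT mice.

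With mice left out 1 at a time, 7 members were called between untreated and WT mice at 12 weeks and 9 at 34 weeks in every case. For treated against WT mice at 12 weeks the 2 calls ranged from 0 to 3, with 0 without treated mouse 10, 1 without WT mouse 1 or 3 and 3 without treated mouse 12. The 4 calls between times in treated mice ranged from 1 (without mouse 10 of 12 weeks) to 5, with 2 without mouse 9 of 34 weeks, and the count for the change of the treated difference from 0 to 1 (without WT mouse 2 of 12 weeks). Des, called in treated against untreated mice, fell just short of the 2-fold limit without untreated mouse 5 or treated mouse 10 at 12 weeks, and without untreated mouse 4 or treated mouse 12 at 34 weeks. Acta2 between times in treated mice was not called without any 1 of the 3 mice of 34 weeks. Log2 differences that changed sign ranged, at 12 weeks, from -1.16 to 0.51 for Tagln in untreated against WT mice, and in treated against WT mice from -0.034 to 1.46 for Acta2, -0.068 to 0.28 for Des, -0.52 to 0.21 for Pdgfrb, -0.19 to 0.33 for Lrat, -0.15 to 0.27 for Reln and -0.19 to 0.66 for Thy1. They ranged from -0.83 to 0.71 for Acta2 in treated against untreated mice at 12 weeks. In treated against WT mice at 34 weeks they ranged from -0.045 to 0.32 for Acta2, -0.084 to 0.16 for Tagln, -0.038 to 0.21 for Lrat and -0.18 to 0.38 for Reln, and between times in treated mice from -0.080 to 0.58 for Pdgfra.

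With total reads, 1 member was called between treated and WT mice at 12 weeks. Signs changed for Tagln (0.10) and Reln (0.25) in untreated against WT mice, for Des (-0.19), Lrat (-0.28) and Reln (-0.26) in treated against WT mice and for Acta2 (-0.74) and Reln (-0.51) in treated against untreated mice, all at 12 weeks. In limma on TPM, 0 were called between treated and WT mice at 12 weeks and 2 between times in untreated mice. Signs changed at 12 weeks for Tagln (0.18) in untreated against WT mice, Des (-0.32), Lrat (-0.43) and Reln (-0.68) in treated against WT mice, and Acta2 (-0.98) and Reln (-0.62) in treated against untreated mice. With length offsets in DESeq2 and edgeR, Reln in treated against WT mice at 12 weeks was -0.16 and -0.20, Acta2 at 34 weeks -0.051 and -0.051, and Thy1 between times in treated mice -0.61 and -0.57. An adjusted p under 0.01 left 0 calls for treated against WT mice at 12 weeks and 1 between times in treated mice, and a fit of only the groups compared left 1 and 2. Apart from the constructed shifts, the cause was not tested. List counts without treated mouse 10 were added after seeing the data.

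Mouse numbers recur between times. With the number as a replicate block, 0 members were called between times in WT, untreated and treated mice. Deviations of same-numbered mice correlated at r of -0.25 to 0.46, the highest for WT mouse 3. Each deviation was taken from a mean of 3 mice and few pairs share a number. These values therefore cannot decide whether same-numbered samples are linked.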
